A study of Drosophila melanogaster with 9 samples.

Results

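The UDP-glycosyltransferase (Ugt) family was described in female fly thoraces through 17 genes. They are the rows of the deposited tables with a FlyBase gene identifier, the type protein coding and a symbol that begins with Ugt and a digit. They were 17 of the 14473 features in the tables and 17 of the 12354 protein-coding FlyBase genes. All 17 carried the UDP-glucuronosyl and UDP-glucosyl transferase domain (Pfam PF00201) in the deposited descriptions. The domain was also listed for 17 other genes, which the tables name differently (Dot, CG17322 and others) and which a newer reference annotation names Ugt as well. Those are set beside the 17 genes below.

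Enzymes of this family transfer a sugar from a UDP-sugar to small fat-soluble molecules, which makes the product more soluble and easier to excrete. In insects the sugar is mainly glucose, and the enzymes sit in the membrane of the endoplasmic reticulum. They are known as the conjugation step of detoxification, after oxidation by cytochrome P450 enzymes, and for acting on plant toxins, insecticides, pigments, hormones and odorants. In Drosophila the genes are best known from the midgut, Malpighian tubules, fat body and antennae, tissues of which a thorax holds only some.

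The series compared 3 genotypes with 3 libraries each, named 412KD, RooKD and scramble control. The flies of all 3 groups were females on adult day 20 in the W1118 (BL5905) background, and all carried a hairpin RNA driven from Act5C, a promoter active in nearly all cells. The 412KD and RooKD hairpins are directed at the retrotransposons 412 and roo, and the hairpin of the controls has a scrambled sequence. Each library was made from pooled thoraces, total RNA was extracted with Trizol, and reads were paired-end. The labels do not say how many flies a pool held or whether pools came from separate crosses, so the p-values measure the spread between these pools, which may be technical. A thorax holds flight muscle along with gut, fat body, nerve, blood and epidermal cells, and in bulk RNA a change in the number of cells of a type and a change in RNA per cell cannot be told apart.

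The libraries held 17547687 to 26171509 reads in listed features. The internal part of 412 (DM412) had 9, 10 and 14 reads in the 412KD libraries, against 14, 13 and 7 in scramble. The internal part of roo (ROO_I) had 231, 166 and 233 reads in the RooKD libraries, against 293, 175 and 177 in scramble. Neither element was called different between the group labelled for its knockdown and scramble in edgeR's quasi-likelihood test (log2 fold change -0.03 ± 0.41 (SE), adjusted p = 0.981 for DM412 and 0.26 ± 0.24, adjusted p = 0.67 for ROO_I), so 412KD and RooKD stand for libraries labelled so throughout. All 9 flight muscle markers were detected, with summed levels of 8564.3 to 9408 CPM (reads scaled to library size) in 412KD, 7482.1 to 8682.6 in RooKD and 6933.2 to 8520 in scramble. Germline transcripts set 412KD replicate 3 and RooKD replicate 1 apart, and to a lesser degree 412KD replicate 1. The 11 ovary and germline markers summed to 96, 7.18 and 845 CPM in 412KD replicates 1 to 3 and to 492.2, 1.53 and 5.15 CPM in RooKD replicates 1 to 3, against 3.75 to 4.92 CPM in scramble. Where leaving out 412KD replicate 3 or RooKD replicate 1 turned the sign or the call of a Ugt gene against scramble, both values are given, and the part of the germline transcripts in them was not tested.

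The 17 genes lie at 6 places of the genome (dm6, coordinates as deposited). On arm 3R, 10 of them form 1 cluster of 51.3 kb (chr3R:11126597-11177910), in the order Ugt86Dd, Ugt86Di, Ugt86Dc, Ugt86Da, Ugt86Dg, Ugt86De, Ugt35b, Ugt35a, Ugt86Dj and Ugt86Dh. Within it 3 genes lie on the plus strand and 7 on the minus strand, neighbours are 102 to 22697 bases apart, and 3 other coding genes (mAcon2, CG4757 and CheA86a) lie between them. On arm 2L, Ugt36Ba, Ugt36Bb and Ugt36Bc stand in a row on the plus strand within 7.37 kb (chr2L:16794211-16801584), 585 to 751 bases apart. Ugt37b1 (chr2L:6225048-6226842) and Ugt37a1 (chr2L:20372409-20374083) lie alone on 2L, and Ugt37c1 (chr2R:16843296-16845038) and Ugt58Fa (chr2R:22641786-22643917) lie alone on 2R. The reference annotation gives each gene 1 to 4 exons and 516 to 543 codons, and 16 of the 17 have the deposited start and end there. No member overlaps another annotated gene, so reads of an antisense or nested gene do not enter their counts by overlap. Several are tandem copies, and the sources used here do not say how the authors counted reads that match more than 1 copy, so the values of close copies are uncertain to that extent.

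**Figure D1:**
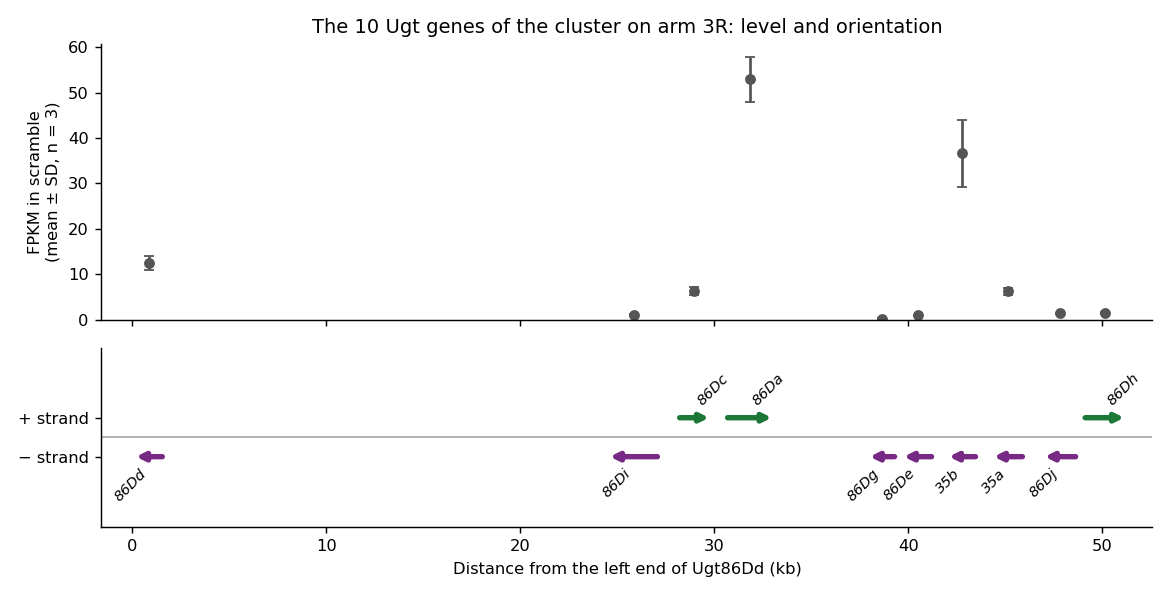
Distance along the cluster of 10 Ugt genes on arm 3R (x axis, kb) against the mean level in the scramble libraries (upper panel, FPKM, bars are SD over 3 libraries), with the orientation of each gene as an arrow (lower panel). Ugt86Da at 52.9 FPKM and Ugt35b at 36.6 FPKM stand above neighbours that lie between 0.153 and 12.5 FPKM.

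The family was carried by few genes. Levels between genes are compared in FPKM, reads scaled to gene length and library size as the authors computed them, averaged over the 3 scramble libraries. Ugt86Da was highest at 52.9 ± 4.9 FPKM (SD, n = 3), above 88.9% of the 11990 protein-coding genes listed in both tables. Ugt35b, a gene known for its expression in the antenna, followed at 36.6 ± 7.45 FPKM, and Ugt36Bc at 26.4 ± 1.09 FPKM. These 3 genes held 71.7% of the summed FPKM of the 17, and the first 6 held 91.4%.

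Ugt58Fa (13.1 ± 1.79 FPKM) and Ugt86Dd (12.5 ± 1.51 FPKM) came next and overlapped each other in range. Ugt86Dd is known from Drosophila as a gene of nicotine resistance. Ugt86Dc (6.25 ± 0.859 FPKM) and Ugt35a (6.21 ± 0.733 FPKM) could not be ordered either, and both lay below the median protein-coding gene, at 7.76 FPKM. Only the 5 genes named before them lay above that median. Ugt86Dj, Ugt36Ba, Ugt86Dh, Ugt86Di, Ugt86De and Ugt37a1 ranged over 1.42 to 0.81 FPKM, where the ranges of most neighbours in the order overlapped.

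At the low end, Ugt37b1 had 0.216 ± 0.0318 FPKM, Ugt86Dg 0.153 ± 0.147, Ugt37c1 0.148 ± 0.101 and Ugt36Bb 0.0469 ± 0.0339 FPKM. Over the 3 scramble libraries together these were 25, 16, 18 and 5 reads. The median of the 17 genes was 1.41 FPKM, and that of the 17 other Ugt genes was 2.92 FPKM.

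The high and low genes were mixed along the cluster on 3R. Ugt86Da and its neighbour on the same strand, Ugt86Dc, are transcribed in the same direction, and stood at 52.9 and 6.25 FPKM. On the minus strand, Ugt35b stood between Ugt86De at 0.951 ± 0.16 FPKM and Ugt35a at 6.21 FPKM. In the row on 2L, Ugt36Bc was at 26.4 FPKM beside Ugt36Ba at 1.41 ± 0.448 FPKM and Ugt36Bb at 0.0469 FPKM.

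By group mean Ugt86Da was first in all 3 groups, with 54.3 ± 7.36 FPKM in 412KD and 58 ± 11.9 FPKM in RooKD. In 412KD, Ugt36Bc (44.3 ± 5.14 FPKM) and Ugt35b (42.7 ± 11.2 FPKM) overlapped each other and Ugt86Da. In 412KD replicate 3 both stood above it, at 47.7 FPKM for Ugt36Bc and 55.3 for Ugt35b beside 45.8 for Ugt86Da. In RooKD, Ugt35b (41.5 ± 2.36 FPKM) lay above Ugt36Bc (25.9 ± 6.28 FPKM), as in scramble.

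**Figure D2:**
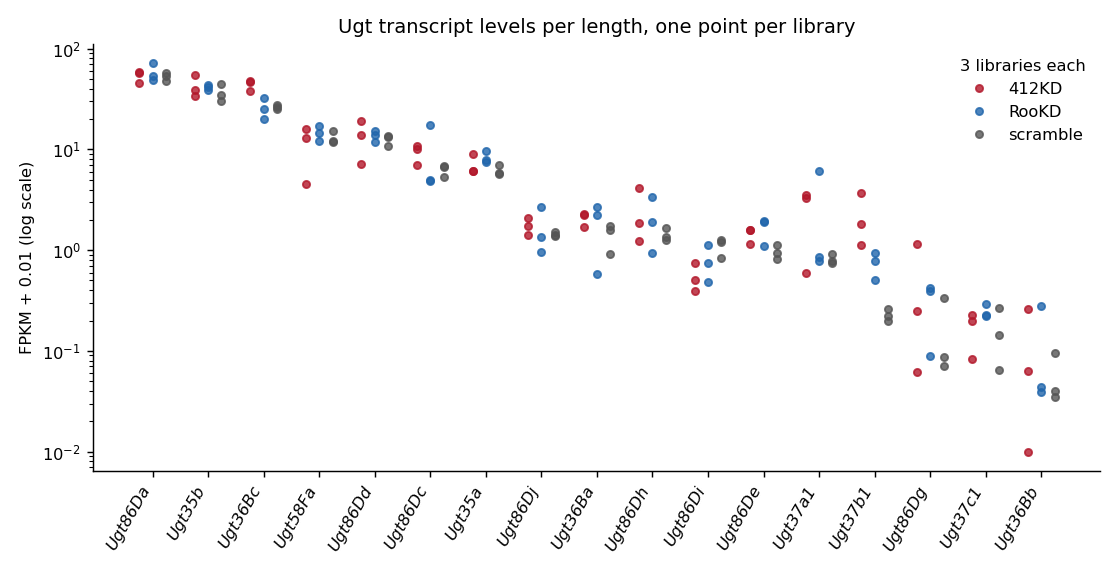
Level of each of the 17 Ugt genes in FPKM (log axis, with 0.01 added so that a value of 0 can be drawn), 1 point per library, with 412KD, RooKD and scramble side by side and genes ordered by their scramble mean. The scramble means run over 0.0469 to 52.9 FPKM, and the groups overlap for most genes. In 412KD, Ugt37b1 and Ugt36Bc stand above all scramble points, and Ugt86Dc and Ugt86De do so narrowly.

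In the libraries labelled 412KD, beside 8.7% of all tested features, 4 of 14 tested Ugt genes stood above every scramble library. They were Ugt37b1 and Ugt36Bc on arm 2L and, by narrow gaps, Ugt86Dc and Ugt86De on 3R. Ugt37b1 averaged 3.63 ± 2.15 CPM in 412KD and 0.362 ± 0.0516 CPM in scramble, and Ugt36Bc averaged 82.7 ± 9.54 CPM in 412KD and 49.6 ± 1.79 CPM in scramble (SD, n = 3 each). Ugt86Di was lower in every 412KD library, at 1.33 ± 0.462 CPM in 412KD and 2.68 ± 0.606 CPM in scramble. With edgeR's quasi-likelihood test and Benjamini-Hochberg adjustment over all 10431 tested features, none of the 14 Ugt genes with enough reads passed an adjusted p of 0.05, where 0.0192% of all features (2 in number) did. Ugt36Bb, Ugt37c1 and Ugt86Dg had too few reads for the filter on low counts. At an unadjusted p under 0.05 there were 5 of 14 Ugt genes, beside 11.2% of all features. Among the 5 is Ugt37b1, which passed the filter on low counts only through its 412KD libraries, where it was high. By DESeq2, 2 of the 16 Ugt genes given an adjusted p were higher and none was lower, where 1.89% of all features were higher and 1.08% lower. They were Ugt37b1 and Ugt36Bc.

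Ugt37b1 had 58, 47 and 149 reads in the 412KD libraries, against 8, 9 and 8 in scramble. Scaled to depth, these were 3.04, 1.85 and 6.02 CPM in 412KD and 0.316, 0.418 and 0.353 CPM in scramble. The 3 libraries of 412KD all lay above scramble, and replicate 3 was the highest. With so few scramble reads, Ugt37b1 passed the filter on low counts through the 412KD libraries. The log2 fold change was 3.32 ± 0.51 (SE), with an adjusted p of 0.0956 by edgeR and 1.68e-06 by DESeq2.

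Ugt36Bc had 88.2, 71.7 and 88.3 CPM in 412KD, against 48.2, 51.7 and 49 CPM in scramble. The groups did not overlap, and the spread within scramble was small. The log2 fold change was 0.74 ± 0.11 (SE), with an adjusted p of 0.0956 by edgeR and 3.5e-05 by DESeq2. Neither neighbour was called. Ugt36Ba was at 0.54 ± 0.31 on the log2 scale (edgeR adjusted p = 0.542) with overlapping groups, and Ugt36Bb had 0, 10 and 2 reads in 412KD against 1, 1 and 3 in scramble.

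Ugt37a1 had 5.55, 5.1 and 0.888 CPM in 412KD, against 1.22, 1.16 and 1.41 CPM in scramble. Replicates 1 and 2 lay above scramble and replicate 3 below it. Over all libraries the log2 fold change was 1.60 ± 0.64 (edgeR adjusted p = 0.432). Without 412KD replicate 3, which leaves 2 libraries in that group, edgeR called 2 Ugt genes, where 0.991% of all features were called. These were Ugt37a1 at 2.07 (adjusted p = 0.0132) and Ugt37b1 at 2.73 (adjusted p = 0.0316). Without that library DESeq2 called 4 (background 4.91%), adding Ugt36Bc at 0.69 (adjusted p = 1.63e-04) and Ugt86Dc at 0.75 (adjusted p = 6.07e-03). The library left out held the lowest 412KD value of Ugt37a1 and of Ugt86Dc, so the calls of both genes depend on leaving it out.

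Ugt86Dc had 16.7, 15.6 and 10.6 CPM in 412KD, against 8.21, 10.2 and 10.4 CPM in scramble. The groups met without overlapping, and the log2 fold change was 0.58 ± 0.20 (edgeR adjusted p = 0.38). Ugt86De was likewise separate at low levels, with 2.67, 2.59 and 1.9 CPM in 412KD against 1.58, 1.35 and 1.85 CPM in scramble (0.58 ± 0.26, edgeR adjusted p = 0.47). Ugt86Di was the 1 gene whose 412KD libraries all lay below scramble, with 1.83, 1.22 and 0.929 CPM against 3.12, 2.92 and 1.98 CPM (-1.02 ± 0.34, edgeR adjusted p = 0.353). Groups that did not overlap were thus seen for 4 of 14 Ugt genes upward and 1 downward, beside 8.7% and 9.01% of all tested features. Ugt37b1, among the 4, was tested only because its 412KD libraries were high, so its place in this count is no support.

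The other abundant genes overlapped scramble. Ugt86Da had 114.2, 109.9 and 86.6 CPM in 412KD, against 112.4, 102 and 90.8 CPM in scramble (0.03 ± 0.14, edgeR adjusted p = 0.955). Ugt35b had 62.6, 54.4 and 87.7 CPM in 412KD, against 49.6, 55.5 and 71.3 CPM in scramble (0.22 ± 0.21, edgeR adjusted p = 0.734), and Ugt35a was 0.18 ± 0.19 (edgeR adjusted p = 0.749). Without 412KD replicate 3 these were 0.14 for Ugt86Da, -0.01 for Ugt35b and -0.04 for Ugt35a.

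Ugt58Fa had 23.2, 28.2 and 8.08 CPM in 412KD, against 21.7, 21.9 and 26.8 CPM in scramble. Replicate 3 was the lowest of the 9 libraries, and the log2 fold change was -0.24 ± 0.42 with it and 0.13 without it. Ugt86Dd had 30.7, 22.3 and 11.2 CPM in 412KD, against 17.5, 21.3 and 21.4 CPM in scramble (0.09 ± 0.34, edgeR adjusted p = 0.938, and 0.40 without replicate 3). Of the remaining members, Ugt86Dh was at 0.76 ± 0.44 (0.12 without replicate 3) and Ugt86Dj at 0.28 ± 0.23 (0.14 without it), with overlapping groups. Ugt37c1 had 7, 8 and 3 reads in 412KD against 11, 2 and 5 in scramble, and Ugt86Dg had 7, 2 and 42 against 3, 2 and 11.

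Across the 14 tested genes, 12 had a log2 fold change above 0, beside 51% of all features, and their median was 0.41, beside 0.01 over all features. Among the 14 is Ugt37b1, which passed the filter on low counts through its 412KD libraries, where it was high. With no such filter, the median of all 17 was 0.54. Summed over the 17 genes, the level was 207.9, 187.2 and 192 FPKM in 412KD, against 154.9, 160.9 and 168.8 FPKM in scramble. By group mean, most of that gap was Ugt36Bc, Ugt35b and Ugt86Dc. The part of Ugt35b was mainly 412KD replicate 3, at 55.3 FPKM beside 38.8 and 34 FPKM in replicates 1 and 2, against 30.4 to 44.8 FPKM in scramble. Markers of other cell types also differed between the groups. The 9 midgut markers summed to 13445.4 to 18966.5 CPM in 412KD against 7384 to 9719 CPM in scramble, and 5 of the 9 were higher by DESeq2 (background 1.89%). The 4 oenocyte markers, of which Cyp4g1 is also a P450 gene, summed to 2710.7 to 3096.3 CPM in 412KD against 1210.7 to 1769.8 CPM in scramble. Most reads of these sums were Cyp4g1. Of the 4 oenocyte markers, 3 had a log2 fold change above 0, and DESeq2 called 2 higher (background 1.89%). FASN3 had 541, 649 and 1317 reads in 412KD against 1011, 533 and 1687 in scramble. The part of the cell type markers in the Ugt values was not tested. The 7 Malpighian tubule markers (398.1 to 430.4 CPM against 388.2 to 467.2 CPM) and the 5 fat body markers (42640 to 74372 CPM against 40606.2 to 68486.1 CPM) overlapped between the groups in their sums. DESeq2 called 1 of the 7 tubule markers lower (background 1.08%) and none of the fat body markers. The 7 hemocyte markers summed to 741.1 to 1027.5 CPM in 412KD against 924.7 to 1572.3 CPM in scramble. Their median log2 fold change was -0.54, and DESeq2 called 1 of the 7 lower (background 1.08%). The 9 flight muscle markers summed to 8564.3 to 9408 CPM in 412KD against 6933.2 to 8520 CPM in scramble, and DESeq2 called none. Of the 9 ovary and germline markers given a DESeq2 adjusted p, 6 were higher (background 1.89%).

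**Figure D3:**
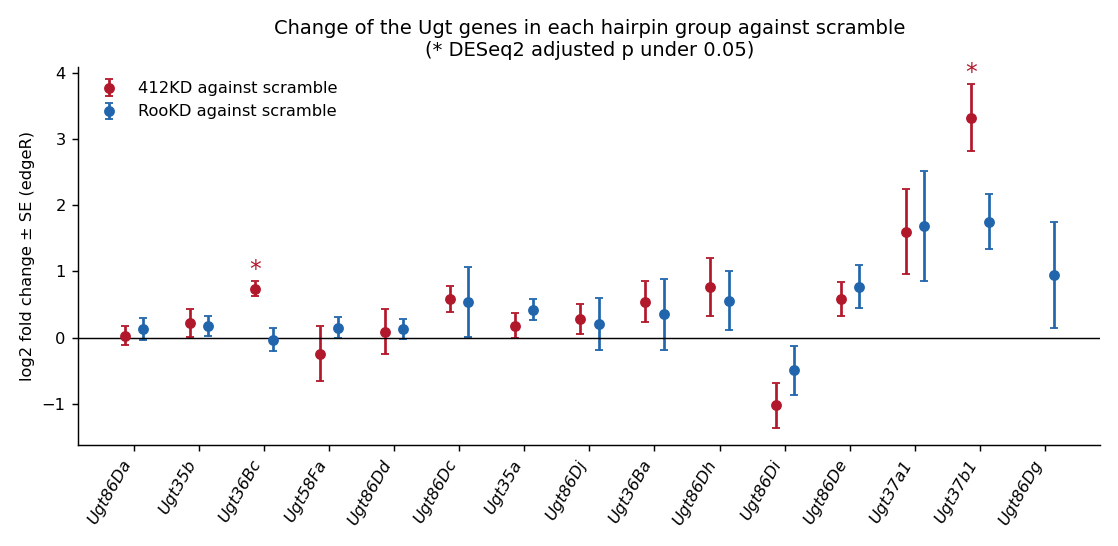
Log2 fold change of each tested Ugt gene (y axis, edgeR, bars are SE) in 412KD and in RooKD, each against the same 3 scramble libraries, with genes ordered by scramble level. Stars mark a DESeq2 adjusted p under 0.05, which 412KD reached for Ugt37b1 at 3.32 and Ugt36Bc at 0.74; edgeR called none.

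In the libraries labelled RooKD, set against the same scramble libraries, Ugt37b1 and, by a narrow gap, Ugt35a stood above every scramble library. These were 2 of 15 tested Ugt genes, beside 9.72% of all tested features. Ugt37b1 averaged 1.22 ± 0.371 CPM in RooKD and 0.362 ± 0.0516 CPM in scramble, and Ugt35a averaged 14.2 ± 1.95 CPM in RooKD and 10.7 ± 1.13 CPM in scramble (SD, n = 3 each). Neither tool called any of the Ugt genes. edgeR's quasi-likelihood test called 0 of 15 tested (background 0.107% of 10305 features), with 3 of 15 at an unadjusted p under 0.05 (background 12.7%). Among the 3 is Ugt37b1, which passed the filter on low counts only through its RooKD libraries. DESeq2 called 0 of the 14 given an adjusted p (background 3.51%). Without RooKD replicate 1 both tools again called none, where edgeR called 0.422% and DESeq2 4.46% of all features. Ugt36Bb and Ugt37c1 had too few reads for the count filter.

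Ugt37b1 had 29, 16 and 26 reads in RooKD, or 1.32, 0.815 and 1.54 CPM, against 8, 9 and 8 reads and 0.316, 0.418 and 0.353 CPM in scramble. All 3 RooKD libraries lay above scramble, and Ugt37b1 passed the filter on low counts through them. The log2 fold change was 1.75 ± 0.41 (SE), with an adjusted p of 0.175 by edgeR and 0.0817 by DESeq2, and 1.69 without RooKD replicate 1.

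Ugt35a had 13.7, 12.5 and 16.3 CPM in RooKD, against 10, 9.98 and 12 CPM in scramble, and the log2 fold change was 0.42 ± 0.16 (adjusted p = 0.343 by edgeR). The groups were apart by a narrow gap, 12.5 CPM against 12 CPM. With Ugt37b1 these were the 2 of 15 Ugt genes whose groups were apart, both upward, beside 9.72% of all features. Ugt37b1 was tested only because its RooKD libraries were high, so its place in this count is no support. Ugt86De had 3.27, 1.78 and 3.08 CPM in RooKD, against 1.58, 1.35 and 1.85 CPM in scramble (0.77 ± 0.32, edgeR adjusted p = 0.378), and its replicate 2 lay within the scramble range.

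RooKD replicate 1, which had the most germline transcripts of its group, was high for most members, most of all for Ugt37a1 and Ugt86Dc. In it 16 of 17 members lay above the scramble mean (log2 of CPM with 0.5 added). Ugt37a1 had 9.68, 1.17 and 1.3 CPM in RooKD, against 1.22, 1.16 and 1.41 CPM in scramble. Only replicate 1 stood out, and the log2 fold change was 1.68 ± 0.83 with it (edgeR adjusted p = 0.455) and -0.02 without it.

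Ugt86Dc had 27.2, 7.18 and 7.46 CPM in RooKD, against 8.21, 10.2 and 10.4 CPM in scramble. The log2 fold change was 0.54 ± 0.53 (edgeR adjusted p = 0.699) and -0.38 without replicate 1. The same library was also the highest RooKD value of Ugt86Da, at 138.8 CPM beside 91.8 and 100.5 CPM, against 112.4, 102 and 90.8 CPM in scramble (0.13 ± 0.16, and -0.07 without it).

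Ugt36Bc had 61.9, 45.8 and 37 CPM in RooKD, around the 48.2 to 51.7 CPM of scramble (-0.03 ± 0.17, edgeR adjusted p = 0.954). Ugt35b (71.1, 65.3 and 61.5 CPM, log2 fold change 0.18 ± 0.15), Ugt58Fa (30.9, 25.3 and 21.2 CPM, 0.15 ± 0.16) and Ugt86Dd (22.7, 18.7 and 23.9 CPM, 0.13 ± 0.15) overlapped scramble. Ugt86Di had 2.77, 1.12 and 1.78 CPM in RooKD, against 3.12, 2.92 and 1.98 CPM in scramble (-0.49 ± 0.37, edgeR adjusted p = 0.613). Ugt86Dg had 13, 12 and 2 reads in RooKD against 3, 2 and 11 in scramble (0.95 ± 0.80). Ugt86Dh, Ugt36Ba and Ugt86Dj were at 0.56 ± 0.44, 0.35 ± 0.54 and 0.21 ± 0.39, and without RooKD replicate 1 at -0.03, 0.15 and -0.34. Ugt58Fa was 0.00 and Ugt36Bc -0.25 without it. Ugt37c1 and Ugt36Bb summed to 23 and 9 reads over the RooKD libraries against 18 and 5 in scramble.

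Of the 15 tested genes 13 had a log2 fold change above 0, beside 53% of all features. Their median was 0.35, beside 0.02 over all features, and -0.01 without RooKD replicate 1. Among the 15 is Ugt37b1, which passed the filter on low counts through its RooKD libraries. With no such filter, the median of all 17 was 0.41. The summed level was 223, 160.6 and 165.3 FPKM in RooKD, against 154.9, 160.9 and 168.8 FPKM in scramble, so that replicate 1 alone stood above the controls. The 5 fat body markers summed to 80542.6 to 90348.2 CPM in RooKD against 40606.2 to 68486.1 CPM in scramble. The 4 oenocyte markers, again mostly Cyp4g1 reads, summed to 2721.8 to 4916.1 CPM against 1210.7 to 1769.8 CPM, with RooKD replicate 1 the highest. DESeq2 called 2 of the 5 fat body markers and 1 of the 4 oenocyte markers higher (background 3.51% in either direction). It called 1 of the 9 flight muscle markers lower. The part of the cell type markers in the Ugt values was not tested. The midgut markers overlapped in their sums, at 8663.2 to 10161.7 CPM in RooKD against 7384 to 9719 CPM in scramble. Their median log2 fold change was 0.44, and DESeq2 called 2 of the 8 given an adjusted p higher (background 3.51% in either direction). In both comparisons the olfactory organ markers stayed near 0 (5 genes, at most 1.9 CPM in sum in any library), while Ugt35b and Ugt35a were read at 9.98 CPM or more in every library.

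**Figure D4:**
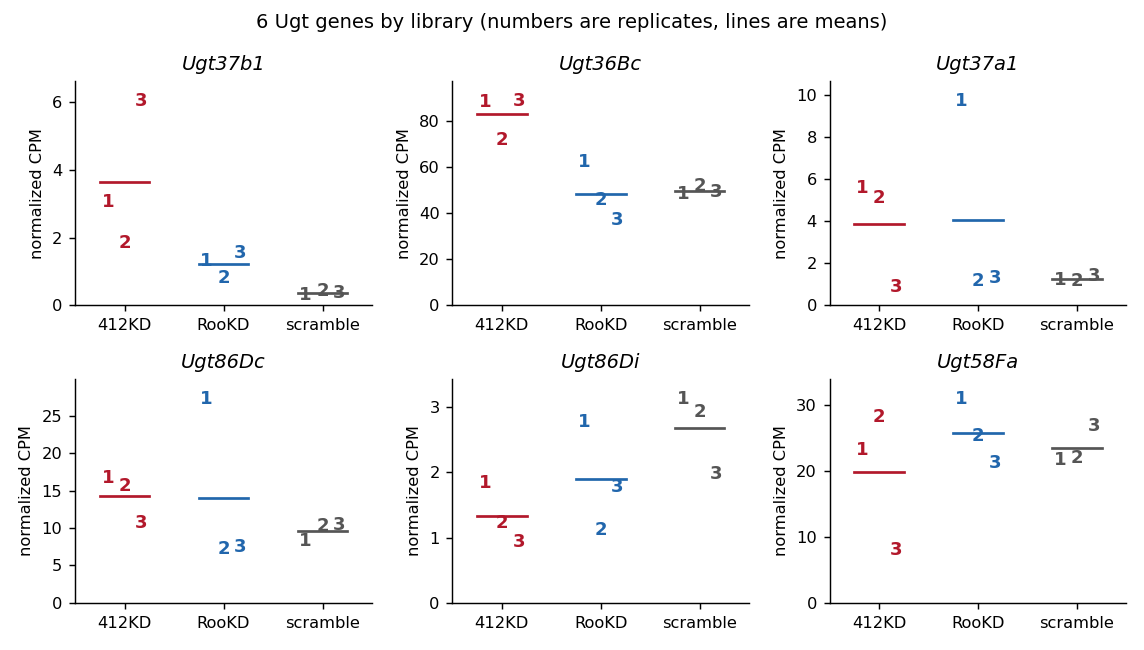
Depth-scaled level (CPM, y axes start at 0) of 6 Ugt genes in each library; digits are replicate numbers and lines are group means. Replicate 1 alone carries the RooKD means of Ugt37a1 (9.68 CPM) and Ugt86Dc (27.2 CPM), 412KD replicate 3 is low for Ugt37a1 (0.888 CPM) and Ugt58Fa (8.08 CPM), and the 3 values of Ugt36Bc in 412KD lie above the rest.

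Between the hairpin groups, Ugt36Bc and Ugt37b1 were higher in every library labelled 412KD than in any labelled RooKD. These were 2 of 15 tested Ugt genes, beside 4.23% of all features. The groups were tested directly in 1 fit of all 9 libraries. None of 15 Ugt genes was called by edgeR (background 0.0943% of 10599 features), and 2 of 15 had an unadjusted p under 0.05 (background 6.02%). DESeq2 called 1 of 17 higher in 412KD (background 0.364%). This was Ugt36Bc, at 88.2, 71.7 and 88.3 CPM in 412KD against 61.9, 45.8 and 37 CPM in RooKD, and the log2 fold change was 0.78 ± 0.18 (adjusted p = 0.341 by edgeR and 0.0123 by DESeq2).

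Ugt37b1 was 3.04, 1.85 and 6.02 CPM in 412KD against 1.32, 0.815 and 1.54 CPM in RooKD. The ranges did not touch, and the log2 fold change was 1.57 ± 0.45 (adjusted p = 0.517 by edgeR and 0.154 by DESeq2). These were the 2 Ugt genes whose 412KD libraries all lay above the RooKD ones (background 4.23%), and no Ugt gene showed the opposite order (background 4.86%). So the larger values of Ugt37b1 in 412KD than in RooKD, each against scramble, were not shown to differ.

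Of the 15 genes 8 were above 0, beside 50.7% of all features, and the median was 0.03, beside 0 over all features. For Ugt37a1 and Ugt86Dc the value turned on the 2 libraries with the most germline transcripts. With all libraries Ugt37a1 was -0.08 ± 0.88 and Ugt86Dc 0.03 ± 0.49. Without both libraries they were 2.09 and 1.13, with edgeR adjusted p-values of 0.0198 and 0.0316, and Ugt36Bc was 0.93 (adjusted p = 0.038). That fit rests on 2 libraries in each hairpin group, keeps 412KD replicate 1 with its 96 CPM of germline markers, and called 0.659% of all features. The 2 libraries left out were picked by their germline transcripts in these data. For Ugt37a1 and Ugt86Dc they held the lowest 412KD value (0.888 and 10.6 CPM) and the highest RooKD value (9.68 and 27.2 CPM). Leaving them out widens the difference of these genes in itself, so their adjusted p-values are not read as calls. DESeq2 called Ugt36Bc without 412KD replicate 3 (background 1.68%), and Ugt36Bc with Ugt86Dc without RooKD replicate 1 (background 1.76%). Cell type markers differed here too. All 9 midgut markers were above 0 (median 0.97), and DESeq2 called 2 higher (background 0.364%). All 9 flight muscle markers were above 0 (median 0.16). None of the 5 fat body and 4 oenocyte markers was (medians -0.55 and -0.54). DESeq2 called none of these last 3 lists. The part of the cell type markers in the Ugt values was not tested.

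Seen library by library, members lay above the scramble mean (on log2 of CPM with 0.5 added) in 13, 11 and 11 of 17 cases in 412KD replicates 1 to 3, with medians of 0.24, 0.15 and 0.2. In RooKD they did so in 16, 7 and 10 of 17 cases, with medians of 0.45, -0.08 and 0.07. Scramble replicates 1 to 3 had 4, 9 and 9 of 17 above their own mean. The medians over all features lay within 0.03 of 0 in every library.

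**Figure D5:**
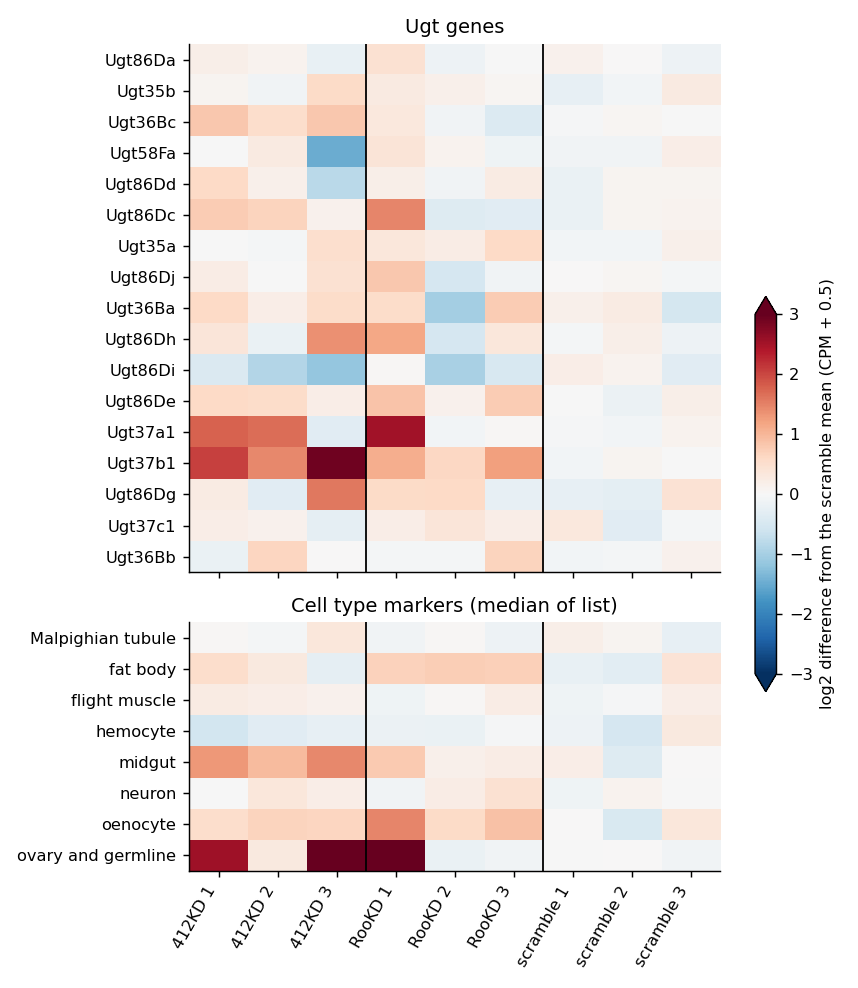
Difference of each library from the scramble mean (colour, log2 of CPM with 0.5 added, cut at -3 and 3) for the 17 Ugt genes, ordered by scramble level, and for the median of 8 marker lists; columns are libraries. Ugt37b1 is above scramble in all 6 hairpin libraries, Ugt37a1 most strongly in 412KD replicates 1 and 2 and RooKD replicate 1, and the ovary and germline markers in 412KD replicates 1 and 3 and RooKD replicate 1.

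The 17 other Ugt genes, with names from the reference annotation were read the same way. edgeR called 0 of 14 tested in each comparison. DESeq2 called 1 of 15 given an adjusted p in 412KD against scramble (background 1.89% higher), 2 of 14 in RooKD against scramble (background 3.51%) and 0 of 15 between the hairpins. At an unadjusted edgeR p under 0.05 there were 8 of 14 in RooKD against scramble, beside 12.7% of all features, 2 of 14 in 412KD against scramble (background 11.2%) and 3 of 14 in 412KD against RooKD (background 6.02%). In RooKD 13 of the 14 were above 0, beside 53% of all features. In every library 6 lay above scramble, beside 9.72%, and 1 lay below. Summed over the 17, RooKD replicate 1 was highest, at 474.3 CPM beside 352.7 and 392.1 CPM, against 316 to 360.1 CPM in scramble. Values of these genes without that library are not given here. By DESeq2, CG17323 (Ugt36D1) was higher in 412KD, at 64.7, 59.4 and 56.2 CPM against 36.2, 34.3 and 47.9 CPM in scramble (0.61 ± 0.15, adjusted p = 0.0378 by DESeq2 and 0.245 by edgeR). In RooKD, CG5999 (Ugt37A3) was higher at 8.99, 4.63 and 7.99 CPM against 4.3, 3.11 and 2.47 CPM in scramble (1.14 ± 0.31, adjusted p = 0.0374 by DESeq2 and 0.216 by edgeR). CG15661 (Ugt49C1) was lower there, at 47.7, 40.6 and 43 CPM against 63.4, 68 and 60 CPM in scramble (-0.53 ± 0.11, adjusted p = 0.00648 by DESeq2 and 0.136 by edgeR). Their medians were 0.09 in 412KD against scramble, 0.39 in RooKD against scramble and -0.37 in 412KD against RooKD, beside 0.01, 0.02 and 0 over all features. CG4302 (Ugt49B1) was the most abundant of them, with 83.6, 84.9 and 42 FPKM in 412KD, 83.7, 58.6 and 62.9 FPKM in RooKD and 43, 44.2 and 50.2 FPKM in scramble, more than Ugt86Da in 5 of the 6 hairpin libraries. CG4302 overlaps CG44245 on the other strand by 90 bases, and neither tool called it.

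Genes that act with the family were read from lists. Of 8 genes that supply nucleotide sugars, such as UGP, which makes UDP-glucose, 7 were listed and tested, and neither tool called any in any of the 3 comparisons. The same held for the 6 regulators of detoxification genes (cnc, Keap1, maf-S, Hr96, ss and tgo), the sulfotransferases (3 of 4 tested) and the xenobiotic transporters (11 of 12 tested). At an unadjusted edgeR p under 0.05, RooKD against scramble held 2 of the 3 tested sulfotransferases (St1 at 0.68 ± 0.19 and St3 at 0.37 ± 0.15) and 2 of the 7 sugar supply genes (Galt at 0.35 ± 0.10 and mmy at -0.40 ± 0.13), beside 12.7% of all features. In 412KD against scramble (background 11.2%) these were 1 of 7 sugar supply genes, 0 of 3 sulfotransferases and 1 of 11 transporters. In 412KD against RooKD (background 6.02%) they were 1 of 7, 1 of 3 and 2 of 11. RooKD against scramble held 0 of 11 transporters, and the regulators held none in any comparison. The sugar supply list had a median log2 fold change of 0.02 in 412KD and 0.11 in RooKD, each against scramble, beside 0.01 and 0.02 over all features.

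Of the 82 cytochrome P450 genes, 76 were given a DESeq2 adjusted p in 412KD against scramble, with 3 called higher (background 1.89%) and 5 lower (background 1.08%). In RooKD against scramble 73 were given one, with 10 called higher and 2 lower (background 3.51% in either direction). edgeR called none in either comparison. Their median was 0.12 in 412KD and 0.19 in RooKD, beside 0.01 and 0.02 over all features. At an unadjusted edgeR p under 0.05 there were 20 of 76 in 412KD (background 11.2%) and 25 of 75 in RooKD (background 12.7%), each against scramble. Between the hairpins there were 13 of 76 (background 6.02%). In RooKD 22 lay above scramble in every library (background 9.72%) and 5 below. Of those DESeq2 called, the furthest from 0 in 412KD were Cyp6g2 (-1.69 ± 0.21, DESeq2 adjusted p = 2.95e-11) and Cyp308a1 (-1.65 ± 0.37, DESeq2 adjusted p = 0.00299). In RooKD they were Cyp4p2 (-3.08 ± 0.54, DESeq2 adjusted p = 2.9e-07) and again Cyp6g2 (-1.58 ± 0.29, DESeq2 adjusted p = 4.1e-06). Between the hairpins edgeR called 1 P450 gene of 76 tested (background 0.0943%), Cyp4p1 (-1.86 ± 0.26, adjusted p = 0.0479). DESeq2 called 1 lower and 1 higher of 79 there, where it called 72 of 11528 features. These were Cyp4p1 (DESeq2 adjusted p = 2.07e-09) and, in the opposite direction, Cyp4p2 (2.67 ± 0.48, DESeq2 adjusted p = 7.36e-07). Of 35 glutathione transferase genes, DESeq2 called GstE1 alone. It was lower in 412KD (-1.98 ± 0.25, adjusted p = 1.35e-11) and in RooKD (-0.85 ± 0.21, adjusted p = 0.0091) than in scramble. It was also lower in 412KD than in RooKD (-1.12 ± 0.26, adjusted p = 0.00645). In 412KD against scramble this was 1 of 34 given an adjusted p (background 1.08% lower). In RooKD against scramble it was 1 of 29, near the background of 3.51% in either direction. Between the hairpins it was 1 of 35, where DESeq2 called 72 of 11528 features. At an unadjusted edgeR p under 0.05 there were 5 of 31 glutathione transferase genes in 412KD and 6 of 30 in RooKD, each against scramble. Between the hairpins there were 3 of 33, with the same backgrounds as for the P450 genes.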

How the data were processed

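Paired-end RNA-seq of 9 libraries (3 groups of 3) was used. The submitters' processing notes name HISAT2, DESeq2 and the build dm6, with no versions. Which program counted the reads, on which annotation and strand setting, and how multiply matching reads were treated is not stated in these sources. The authors deposited 2 tables, each holding 1 hairpin group and scramble. Raw read counts stand in them per the file headers. The deposited normalized signal is the count divided by 1 size factor per library. The deposited FPKM values give levels per length. The deposited log2 fold changes and deposited p-values are the authors' own; none is printed.

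Counts were tested with edgeR 4.0.16 (quasi-likelihood, robust, TMM scaling, filterByExpr, adjusted p under 0.05 by Benjamini-Hochberg over all features; R 4.3.3), and with DESeq2 1.42.0 as an alternative. Comparisons with scramble used 6 libraries, and 412KD against RooKD used all 9 over the features both tables hold. SE is the log2 fold change divided by the square root of F. CPM values are TMM-scaled. 6 low-complexity features were left out. Same-numbered libraries correlated at -0.21 to 0.393 (Pearson's r of deviations), over 0.1 in 4 of 9 pairs, so numbers were not taken as pairs. Members, lists and the rule for the genes given in full (called by either tool, an unadjusted edgeR p under 0.05, the 3 largest changes per comparison, the 6 highest scramble levels) were chosen with earlier results of these data known.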

Additional observations from a re-analysis of the deposited data

How the results depend on the processing

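Calls depended on the tool and on single libraries. Against 0 Ugt genes called by edgeR, DESeq2 called 2 in 412KD against scramble and 1 in 412KD against RooKD; leaving out 1 library gave 0 to 2 and 0, and none of these settings called any in RooKD against scramble. DESeq2 without 412KD replicate 3 called 4 in 412KD against scramble and 1 in 412KD against RooKD. Without RooKD replicate 1 it called 2 in 412KD against RooKD, and edgeR without both called 3. These DESeq2 fits were chosen after seeing the data. So were the libraries to leave out in them and in the edgeR fit without both. In the comparisons with scramble, leaving out both is the same as leaving out 1. Over all features edgeR called 2, 11 and 10 in 412KD against scramble, RooKD against scramble and 412KD against RooKD. DESeq2 called 337, 347 and 72; with no filter on low counts edgeR called 15 and 26 in the first and second; with all 9 libraries 14 in the first; with the 6 libraries of the 2 groups 4 in the third. Leaving out 1 library gave 0 to 105, 0 to 44 and 2 to 22, and both 70 in the third. DESeq2 called 531 without 412KD replicate 3 and 467 without RooKD replicate 1 in the comparisons with scramble, and 203 and 190 in the third.

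With the replicate block, 0 Ugt genes were called in each comparison, and 0, 10 and 4 features in all; the numbers do not pair the libraries. The block turned Ugt86Dd to -0.01 in 412KD against scramble, and Ugt37a1 to 0.20 and Ugt86Dg to -0.06 in 412KD against RooKD. The median of the tested Ugt genes ranged over 0.27 to 0.54, -0.01 to 0.5 and -0.22 to 0.39 in the 3 comparisons.

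Of 479 recomputed log2 fold changes of single Ugt genes, 50 changed sign and 15 had an adjusted p under 0.05, which no single Ugt gene had in the edgeR fits of all libraries; the cause was not tested. Leaving out 1 library moved these in 412KD against scramble: Ugt86Da from -0.05 to 0.14, Ugt86Dd -0.26 to 0.40, Ugt35a -0.04 to 0.28, Ugt35b -0.01 to 0.38 and Ugt58Fa -0.59 to 0.13. In RooKD against scramble the ranges were -0.02 to 2.11 for Ugt37a1, -0.07 to 0.24 for Ugt86Da, -0.38 to 0.85 for Ugt86Dc and -0.25 to 0.12 for Ugt36Bc. In 412KD against RooKD they were -0.28 to 0.96 for Ugt86Dc, -0.18 to 0.19 for Ugt35b, -0.52 to 1.63 for Ugt37a1, -0.21 to 0.11 for Ugt86Da, -0.38 to 0.28 for Ugt86Dd and -1.06 to 1.21 for Ugt86Dg. Without both libraries, 412KD against RooKD gave -0.13 for Ugt35b, 2.09 for Ugt37a1, 0.13 for Ugt58Fa, 0.21 for Ugt86Da, 0.30 for Ugt86Dd, 0.11 for Ugt86De, -0.84 for Ugt86Dg and 0.06 for Ugt86Di. DESeq2 without 412KD replicate 3 gave -0.03 for Ugt35a, -0.01 for Ugt35b and 0.14 for Ugt58Fa against scramble, and -0.18 for Ugt35b, 0.40 for Ugt37a1, 0.02 for Ugt86Da, 0.27 for Ugt86Dd and -1.03 for Ugt86Dg against RooKD. DESeq2 without RooKD replicate 1 gave -0.01 for Ugt37a1, -0.06 for Ugt86Da and -0.37 for Ugt86Dc in RooKD against scramble, and 1.62 for Ugt37a1 and 0.09 for Ugt86Da in 412KD against RooKD.

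Depth limits Ugt36Bb, Ugt37c1 and Ugt86Dg, which had 5 to 51 reads per group.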
